A study of Mus musculus with 9 samples.

Results

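The Hox genes of the mouse were followed in the lambdoidal junction, the place where the facial prominences meet and fuse to form the upper lip and primary palate. They were chosen by symbol, as the protein-coding genes named Hoxa, Hoxb, Hoxc or Hoxd with a number. This gave 39 genes of the 54532 in the table, in 40 rows because Hoxd4 is listed under 2 identifiers, and 38 of the 39 are described here. RNA-seq was performed on lambdoidal junction tissue of C57BL/6J embryos at 3 stages, embryonic day (E) 10.5, E11.5 and E12.5, in 3 libraries each. No allele or treatment distinguished the groups, which are labelled by stage. Whether they also differ in dissection or batch is not given. Each library was made from the pooled tissue of several embryos. The study compared the stages to follow gene expression while the prominences fuse. In such bulk samples, fewer cells of a type and less RNA per cell cannot be told apart.

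Hox genes encode homeodomain transcription factors that give cells their position along the head-to-tail axis. They lie in 4 clusters, HoxA to HoxD, and the number of a gene marks its paralogue group, from group 1, which is active earliest and nearest the head, to group 13, which acts at the tail, in the limbs and in the genitalia. The neural crest that builds the face comes from in front of the Hox-expressing hindbrain and is known as Hox-free, whereas the crest of the second and more posterior pharyngeal arches carries Hox RNA. Beside the tissue label, 18 genes of facial mesenchyme and epithelium were examined, among them Alx1, Msx1, Prrx1 and Pax9, and all 18 were detected. Their summed level was 1573–2548 CPM (counts per 1000000 counts of the library) at E10.5, 3206–3369 CPM at E11.5, then 2997–3538 CPM at E12.5. Detection alone is no check of the label, since all 8 somite and all 6 limb bud genes examined were detected too.

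The libraries held 16581009–20836804 counts. At that depth, 3 counts, the upper limit that a count of 0 allows, were worth 0.144–0.186 CPM, and this limit covers counting error only. A gene was taken as detected when it had more than 3 counts in every library of at least 1 stage. Only 3 of the 38 Hox genes met this: Hoxd1, Hoxd8 and Hoxc13. Another 6, Hoxa2, Hoxa3, Hoxb9, Hoxc5, Hoxc8 and Hoxd9, exceeded 3 counts in some library but not in all libraries of any stage. A further 15 had at most 3 counts in every library: Hoxa5, Hoxa7, Hoxa9, Hoxb1, Hoxb2, Hoxb3, Hoxb4, Hoxb5, Hoxb7, Hoxb8, Hoxc4, Hoxc6, Hoxc12, Hoxd3 and Hoxd13. The remaining 14 were at 0 in all 9 libraries: Hoxa4, Hoxa6, Hoxa10, Hoxa11, Hoxa13, Hoxb6, Hoxb13, Hoxc9, Hoxc10, Hoxc11, Hoxd4, Hoxd10, Hoxd11 and Hoxd12. Most of the genes of the 38 that pattern the trunk, limb and tail were therefore not detectable at this depth, which differs from being absent.

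**Figure D1:**
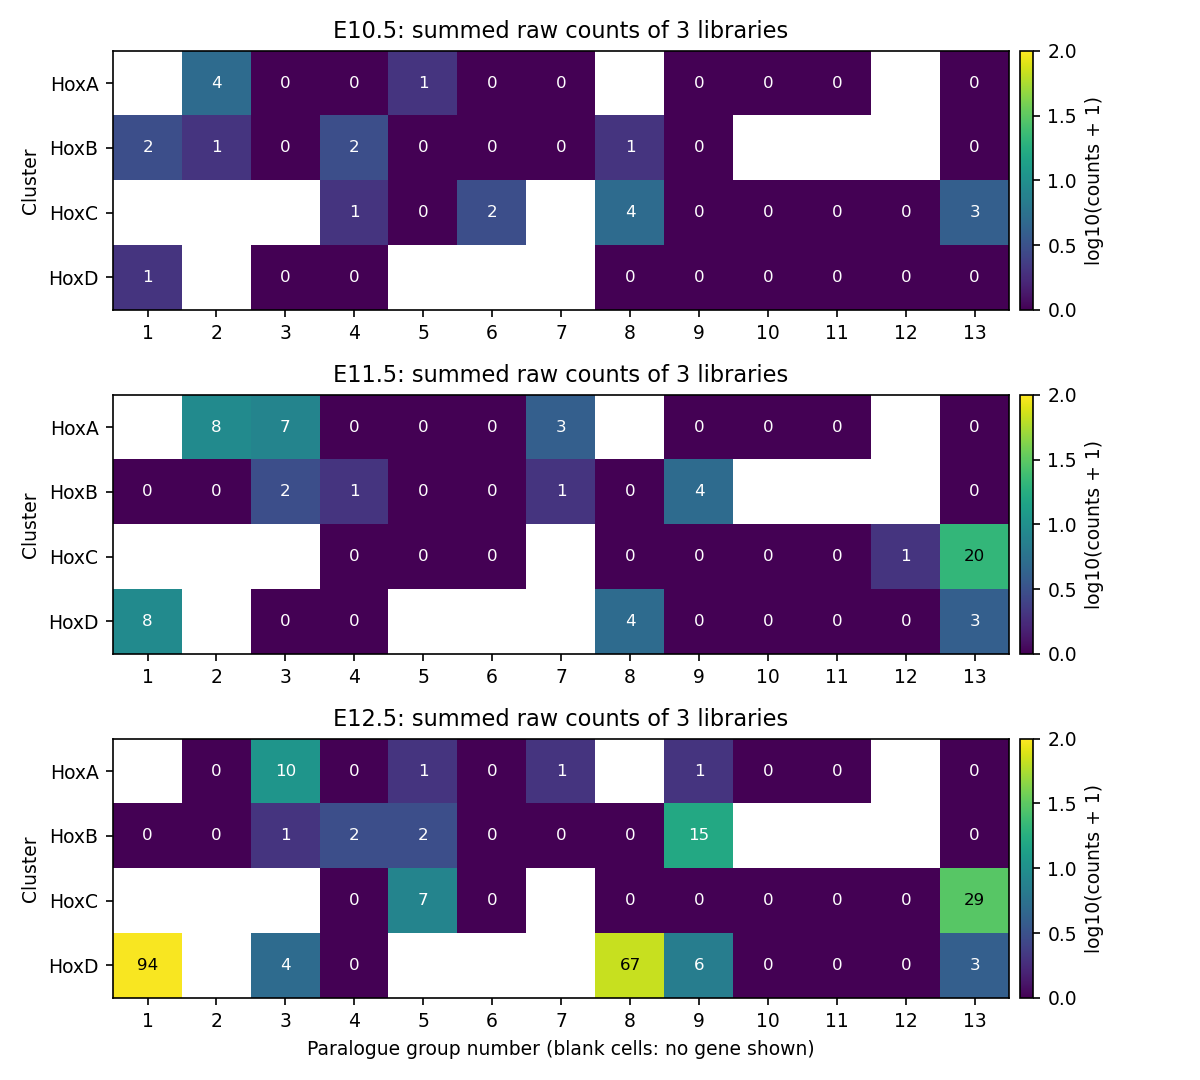
Summed raw counts of the 3 libraries of each stage for the 38 Hox genes, by cluster (rows) and paralogue group number (columns); cells with no gene shown are blank, and the colour is log10 of the count plus 1. Hoxd1 reached 94 and Hoxd8 reached 67 counts at E12.5, and no other of the 38 passed 29 at any stage.

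The 38 Hox genes together had 327 counts in the 9 libraries, of which the 3 detected genes held 226, or 69.1%. The summed count was 5, 6 and 11 in the E10.5 libraries, 28, 15 and 19 at E11.5, then 102, 66 and 75 at E12.5. The stages did not overlap in this sum. On the CPM scale, the sum was 0.442 ± 0.209 CPM at E10.5, 1.08 ± 0.398 CPM at E11.5, then 4.59 ± 1.10 CPM at E12.5 (SD, n = 3 each). Hoxd1 and Hoxd8 held 4.55% of these counts at E10.5 (exact binomial 95% interval 0.115–22.8%), 19.4% at E11.5 (10.4–31.4%) and 66.3% at E12.5 (59.9–72.2%). These intervals pool the libraries and cover counting error only. At E11.5 the pair had 9, 0 and 3 counts in the 3 libraries. The 2 genes were picked as those with the most counts here, so their shares are a description. The other 36 genes summed to 0.422 ± 0.224, 0.861 ± 0.151 and 1.53 ± 0.659 CPM at the 3 stages. Their summed counts were 19, 15 and 16 in the E11.5 libraries and 40, 26 and 16 at E12.5, so these 2 stages overlapped. For scale, the 9 TALE homeodomain genes, the Pbx, Meis and Pknox cofactors with which Hox proteins bind DNA, were all detected, with a summed level of 976–1102 CPM at E10.5, 988–1008 CPM at E11.5, then 760–901 CPM at E12.5.

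**Figure D2:**
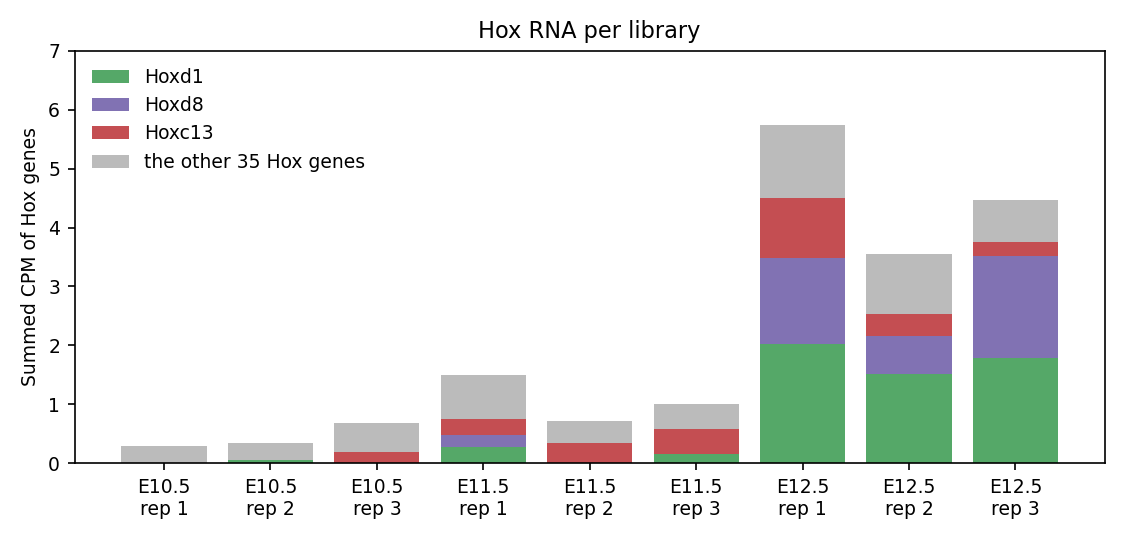
Summed level of the Hox genes in each library, in CPM, split into Hoxd1, Hoxd8, Hoxc13 and the other 35 genes; each bar is 1 library (rep, replicate). The E12.5 bars lie between 3.55 and 5.74 CPM, above every E11.5 bar, and the Hoxd1 and Hoxd8 segments make up most of the E12.5 bars.

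The 2 genes with the most counts both belong to the HoxD cluster, which spans chr2:74668310-74765142 (GRCm38). Hoxd1 (ENSMUSG00000042448, chr2:74762980-74765142, plus strand) is the last gene at the group 1 end, and Hoxd8 (ENSMUSG00000027102, chr2:74704615-74707933, plus strand) lies inside the cluster, with 55046 bases between the genes. The 250 bases before each start are shown because this pair held most of the Hox RNA at E12.5, and because the Hoxd1 window also holds the start of a second transcript. They come from the RefSeq promoter table (GRCm38.p6, plus strand), and capitals mark CCAAT, the binding motif of the factor NF-Y, read on either strand.
Hoxd1 chr2:74762730-74762979: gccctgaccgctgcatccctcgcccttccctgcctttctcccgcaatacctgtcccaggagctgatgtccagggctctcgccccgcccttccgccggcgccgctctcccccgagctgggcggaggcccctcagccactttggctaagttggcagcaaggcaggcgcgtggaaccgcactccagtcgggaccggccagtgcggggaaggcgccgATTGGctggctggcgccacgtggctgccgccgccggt
Hoxd8 chr2:74704365-74704614: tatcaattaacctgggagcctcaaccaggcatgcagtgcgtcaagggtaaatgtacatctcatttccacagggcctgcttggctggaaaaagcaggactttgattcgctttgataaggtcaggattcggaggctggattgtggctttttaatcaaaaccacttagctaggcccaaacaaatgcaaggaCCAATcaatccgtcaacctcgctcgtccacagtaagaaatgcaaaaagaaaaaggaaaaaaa

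The windows differed in composition. The Hoxd1 window was 71.6% GC with 24 CpG dinucleotides, and the Hoxd8 window was 44.4% GC with 6 CpG. Each held 1 match to CCAAT, beginning 37 bases before the start in Hoxd1, where it reads ATTGG on the plus strand, and 62 bases before the start in Hoxd8. The table gave windows for 22 of the 38 Hox genes, 14 of which held CCAAT on either strand, against 33.8% of all 32851 promoters. Of the 8 windows of genes at 0 in all libraries 6 held it, so CCAAT does not set Hoxd1 and Hoxd8 apart. TATAAA, the TATA box, was in 4 of the 22 against 12.4% of all promoters. TAATTA, a core homeodomain motif that is its own reverse complement, was in 1 of 22 against 4.84%, and TGATTNAT, the composite Hox-Pbx motif, in 1 of 22 against 2.82%, both searched on both strands. Neither the Hoxd1 nor the Hoxd8 window held any of the last 3 motifs. The median CpG number was 12.5 over the 22 Hox windows (range 2–35), 16.5 over the 8 windows of genes at 0 in all libraries, and 6 over all promoters. A match is a description of letters only.

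Hoxd1 is known for its expression in pain-sensing neurons of the mouse. It had 0, 1 and 0 counts in the 3 E10.5 libraries, 5, 0 and 3 at E11.5, then 36, 28 and 30 at E12.5. Every E12.5 library was well above every earlier library. The level at E12.5 was 1.77 ± 0.259 CPM (SD, n = 3), and the pooled counts were 12.9-fold higher per library size than at E11.5 (exact counting interval 6.30–30.8) and 88.9-fold higher than at E10.5 (15.6–3550), where the comparison rests on a single count. The 8 counts at E11.5 against 1 at E10.5 gave a ratio of 6.88, with an interval of 0.923–305 that includes no difference. Tested with edgeR and adjusted by Benjamini-Hochberg, Hoxd1 rose by 3.62 on the log2 scale at E12.5 vs. E11.5 (SE 0.59, adjusted p = 0.00302) and by 6.04 at E12.5 vs. E10.5 (SE 0.73, adjusted p = 0.000188). The size of these rises hangs on single libraries of the earlier stages. Hoxd1 stayed called with each library left out, in fits whose filter on low counts it passed only through E12.5. Leaving out E11.5 replicate 1 gave a rise from E11.5 of 4.41, leaving out its replicate 2 gave 2.996, and that from E10.5 was 7.94 without E10.5 replicate 2, which held the only count.

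Hoxd8 is the HoxD member of the group that holds Hoxb8 and Hoxc8, genes of trunk identity. It was at 0 in all E10.5 libraries, had 4, 0 and 0 counts at E11.5, then reached 26, 12 and 29 counts at E12.5. The stages again did not overlap between E12.5 and the earlier ones, although E12.5 replicate 2 lay below the other two. The level at E12.5 was 1.28 ± 0.564 CPM (SD, n = 3), 18.4-fold higher than at E11.5 by pooled counts (exact counting interval 6.87–69.6) and at least 7.14-fold higher than E10.5, against a limit of 3 counts per library. The fitted rise was 4.08 on the log2 scale at E12.5 vs. E11.5 (SE 0.82, edgeR's quasi-likelihood test, Benjamini-Hochberg adjusted p = 0.00965) and 7.47 at E12.5 vs. E10.5 (SE 1.10, adjusted p = 0.00142). The fitted value against E10.5, where every library is at 0, depends on the prior count of the tool and is not a bound. The SE beside it was derived from that value and has the same limit. All 4 counts at E11.5 were in replicate 1, and both the 18.4-fold ratio and the rise of 4.08 hang on that library. Without it the group is at 0 and the fitted rise was 7.57, again no bound, and without E11.5 replicate 2 it was 3.48. Without E12.5 replicate 1, the E12.5 vs. E11.5 rise was 3.97, with an edgeR Benjamini-Hochberg adjusted p of 0.0663.

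Hoxc13, a regulator of hair and nail keratin genes at the other end of the paralogue series, had 0, 0 and 3 counts at E10.5, 5, 7 and 8 at E11.5, then 18, 7 and 4 at E12.5. All E11.5 and E12.5 libraries exceeded all E10.5 libraries, while E11.5 and E12.5 overlapped. Its level was 0.543 ± 0.413 CPM at E12.5 (SD, n = 3), with most of the spread from E12.5 replicate 1. The pooled counts were 5.74-fold higher at E11.5 than at E10.5 (exact counting interval 1.70–30.1) and 9.15-fold higher at E12.5 than at E10.5 (2.83–46.9), both against only 3 counts, and 1.59-fold at E12.5 vs. E11.5 (0.872–2.97), which includes no difference. Hoxd1, Hoxd8 and Hoxc13 share no exon bases with another gene.

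Per kilobase of exon, the order of the E12.5 levels was Hoxd1 (0.953 CPM per kb), Hoxd8 (0.466) and Hoxc13 (0.221). Hoxd1 and Hoxd8 ranked above 33.0% and 26.9% of the 17276 protein-coding genes with a count at E12.5, and Hoxc13 above 21.1%, where the median gene had 3.68 CPM per kb. The Hox genes with the most RNA were thus in the lower part of the transcriptome of this tissue. Over the 3 libraries the range was 0.810–1.09 CPM per kb for Hoxd1, 0.235–0.630 for Hoxd8 and 0.0968–0.412 for Hoxc13. At E12.5 the lowest Hoxd1 library thus lay above the highest Hoxd8 library. The ranges of Hoxd8 and Hoxc13 overlapped, although Hoxd8 was the higher of the pair in each E12.5 library.

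**Figure D3:**
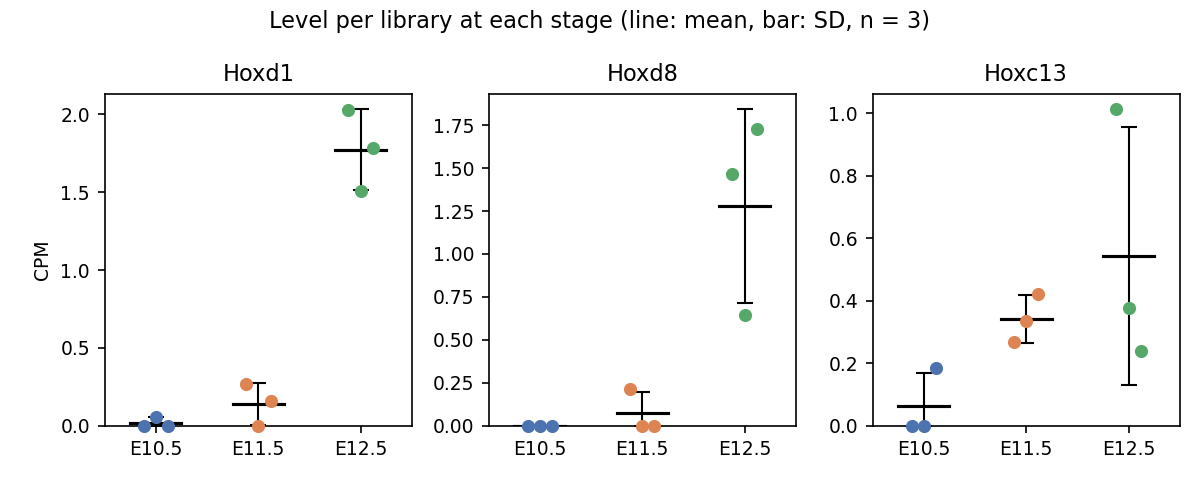
Level in CPM of the 3 detected Hox genes in each library (points) at the 3 stages, with the mean (line) and SD (bar, drawn down to 0 at most) of 3 libraries; the vertical scale differs between panels. Hoxd1 and Hoxd8 stand clear of both earlier stages at E12.5, whereas Hoxc13 overlaps between E11.5 and E12.5.

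The whole table was tested between each pair of stages, and a gene was called when the edgeR Benjamini-Hochberg adjusted p was at most 0.05 and the log2 fold change at least 1 in size. At E11.5 vs. E10.5, 6.07% of 15708 tested genes were called, and no Hox gene had enough counts to be tested. At E12.5 vs. E10.5, 9.97% of 15899 tested genes rose and 5.08% fell, and at E12.5 vs. E11.5, 4.14% of 15808 rose and 5.1% were called in either direction. Hoxd1 and Hoxd8 were the only Hox genes tested in either comparison, and both rose in both. They passed the filter on low counts only through their E12.5 libraries, so their number and their calls under this filter give no support of their own. These comparisons share libraries.

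Without the filter, each of the 38 Hox genes with a count could be tested. At E11.5 vs. E10.5, none of 19 was called, against 4.21% of all genes, although Hoxc13 was under 0.05 before adjustment in edgeR's quasi-likelihood test (unadjusted p = 0.0472). DESeq2 gave none of the 19 an adjusted p, so that no call could be made with it, and had 0 of the 19 under an unadjusted 0.05. At E12.5 vs. E10.5, 4 of 22 rose and none fell, where 6.45% of all genes rose: beside Hoxd1 and Hoxd8 these were Hoxc13 (edgeR Benjamini-Hochberg adjusted p = 0.0203) and Hoxb9 (adjusted p = 0.0240). DESeq2 gave an adjusted p to 4 of the 22 and called Hoxd1 and Hoxd8, where 8.33% of all genes with an adjusted p rose. At E12.5 vs. E11.5, Hoxd1 and Hoxd8 were the only ones of 18 that rose, where 2.82% of all genes did, and DESeq2, with an adjusted p for 3 of the 18, called the same pair, where 3.87% of all genes with an adjusted p rose. By direction alone, 13 of the 22 Hox genes with a count had more RNA per library size at E12.5 than at E10.5 and 9 had less, where 45.8% of all genes with a count were higher at E12.5. At E12.5 vs. E11.5, 13 of 18 were higher and 5 lower, where 53.5% of all genes were higher. At E11.5 vs. E10.5, 11 of 19 were higher and 8 lower, where 43.7% of all genes were higher. These shares were not tested.

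The 6 genes seen only in some libraries did not move as a group. Hoxb9, which shapes thoracic ribs, had no count at E10.5, then 1, 2 and 1 at E11.5, then 3, 8 and 4 at E12.5, so that its pooled level was 4.12-fold higher at E12.5 than at E11.5 (exact counting interval 1.31–17.1). Hoxa3, which acts in the third arch and the thymus, had no count at E10.5, 1, 0 and 6 at E11.5, then 6, 2 and 2 at E12.5. Hoxc5 had counts at E12.5 alone, of 2, 4 and 1, and so did Hoxd9, of 4, 1 and 1. Hoxa2, the selector gene of the second arch, ran the other way, with 4, 0 and 0 counts at E10.5, 6, 1 and 1 at E11.5, then none at E12.5. Hoxc8 had 4 counts in E10.5 replicate 3 and none elsewhere. In all, 11 Hox genes were at 0 at E10.5 and had a count at E12.5, and 7 had a count at E10.5 and none at E12.5. Some of them, such as Hoxa9, Hoxb2, Hoxb8 and Hoxc4, had a single count in all libraries together. The same share over all genes was not computed, so these numbers are a description and show no gain of Hox genes.

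The counts at E10.5 came from different clusters in different libraries. In replicate 1 all 5 Hox counts were from HoxA, 4 of them from Hoxa2. In replicate 2, 5 of the 6 counts were from HoxB, spread over Hoxb1, Hoxb2, Hoxb4 and Hoxb8. In replicate 3, 10 of the 11 were from HoxC, namely Hoxc8 with 4, Hoxc13 with 3, Hoxc6 with 2 and Hoxc4 with 1, and Hoxc4, Hoxc6 and Hoxc8 had no count in any other library. E10.5 replicate 3 stood apart from its group, with a chi-square per degree of freedom over genes of 57.0 and 61.6 against replicates 1 and 2, which differed from each other by 6.24. Neither Hoxd1 nor Hoxd8 had a count in E10.5 replicate 3, as in replicate 1. Differences of this order were not particular to E10.5. On the same measure the E12.5 libraries differed by 25.2, 27.9 and 54.3, and the E11.5 libraries by 4.19–10.6.

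The clusters differed in what they held. Over all 9 libraries HoxD had 190 counts, HoxC 67, HoxA 36 and HoxB 34 in the genes described here. HoxD went from 1 count at E10.5 to 15 and then 174, HoxA from 5 to 18 and 13, HoxC from 10 to 21 and 36, and HoxB from 6 to 8 and 20. HoxD thus went from the fewest counts at E10.5 to the most at E12.5.

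Within HoxD the signal did not follow gene order. At E12.5 the counts from the group 1 end were 94 for Hoxd1, 4 for Hoxd3, 0 for Hoxd4, 67 for Hoxd8, 6 for Hoxd9, 0 for Hoxd10, Hoxd11 and Hoxd12, and 3 for Hoxd13, the gene of digits and genitalia. The genes between Hoxd1 and Hoxd8 are those most open to loss of reads in counting. Of the exon bases of Hoxd3 62.3%, and of Hoxd4 52.3%, lie in same-strand exons of other genes, and Hoxd4 also has its second row. How reads that fall in 2 genes were counted is not given in the sources used here. Over all Hox rows, 10 share more than 10% of their exon bases with another gene, and 4 of these are among the genes at 0.

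**Figure D4:**
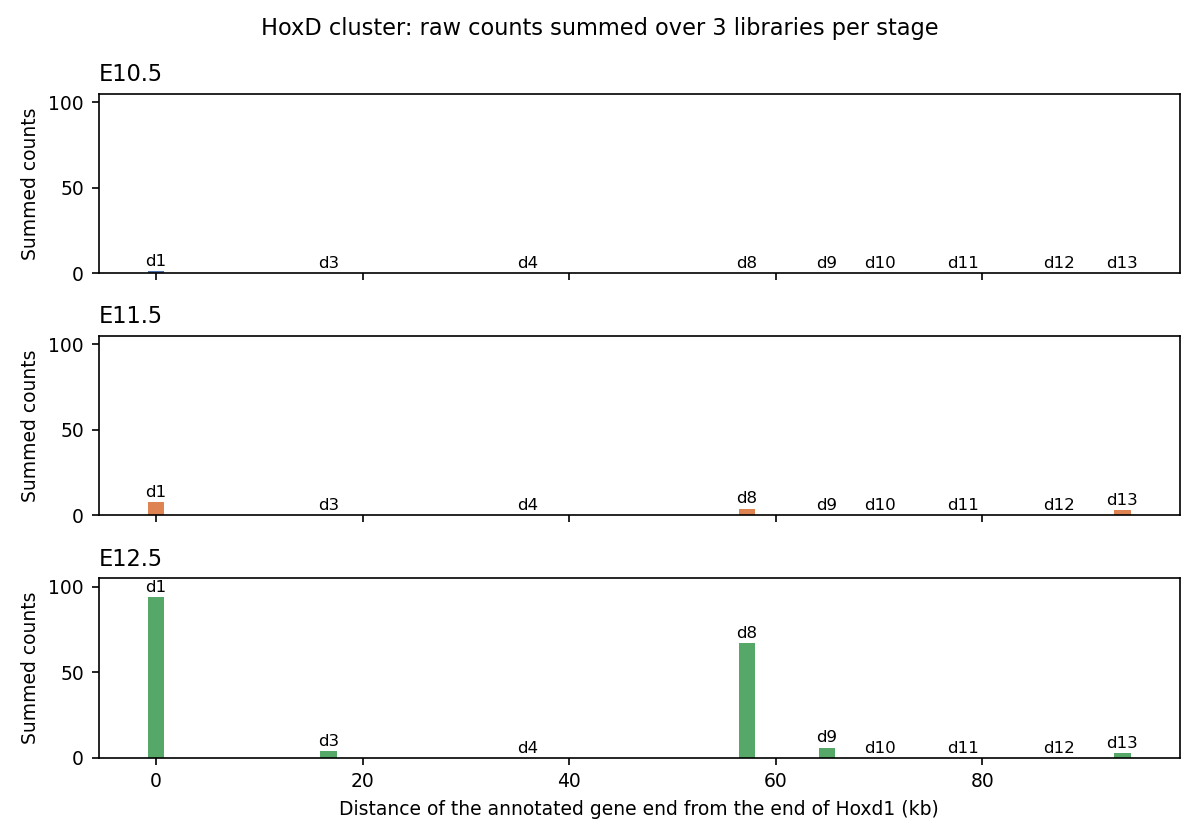
Raw counts of the HoxD genes, summed over the 3 libraries of each stage, against the distance in kb of the annotated end of each gene from the end of Hoxd1; labels give the gene (d1 to d13). At E12.5 Hoxd1 (94) and Hoxd8 (67) stand out, with 6 counts or fewer in each of the other HoxD genes.

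Beside Hoxd1 lies Haglr (ENSMUSG00000075277, chr2:74748422-74762896, minus strand), a long non-coding RNA that starts 83 bases before Hoxd1 and runs the opposite way. It had no count at E10.5, 0, 3 and 1 at E11.5, then 7, 4 and 11 at E12.5. Its E12.5 libraries all lay above the earlier ones, as those of Hoxd1 did, and its pooled level was 6.05-fold higher than at E11.5 (exact counting interval 2.05–24.1) and at least 2.35-fold higher than E10.5. Without a filter on low counts, its rise at E12.5 vs. E10.5 had an edgeR Benjamini-Hochberg adjusted p of 0.00348, and that at E12.5 vs. E11.5 an adjusted p of 0.0898. The library kit does not keep strand, so reads of a gene and of an antisense partner cannot be told apart where they overlap, which the exons of Haglr and Hoxd1 do not.

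Of the 46 other rows of the table that lie inside the clusters, 33 were at 0 in all libraries and 3 were detected: Haglr, the HoxB lincRNA Gm53 and the HoxB processed pseudogene Gm11539. Gm53 had 0, 4 and 1 counts at E10.5, 4, 8 and 10 at E11.5, then 4, 0 and 2 at E12.5. Gm11539 had 3–16 counts in every library, but reads of its parent gene can fall on a pseudogene. The antisense RNAs Hotair, Hoxa11os, Hoxb3os and Hoxb5os were at 0, and Hotairm1 had at most 5 counts. Of the 7 microRNA rows, Mir196a-1 alone had counts, with 3 in all.

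Most genes just outside the clusters were expressed. Of the 24 protein-coding genes that flank the clusters, 3 on each side, 19 were detected, with 84–37815 counts in every library. None of these 19 was called in any of the 3 comparisons, where 6.07% of all tested genes were called at E11.5 vs. E10.5, 9.97% rose and 5.08% fell at E12.5 vs. E10.5, and 5.1% were called at E12.5 vs. E11.5. At 6.07% and 5.1%, a count of 0 of 19 is near the background. At E12.5 vs. E10.5, where 2392 of 15899 tested genes were called in either direction, 0 of 19 is a lower share, and the difference was not tested. On either side of HoxD, Lnpk was at 39.6, 43.5 and 38.8 CPM and Mtx2 at 75.0, 66.7 and 79.0 CPM at the 3 stages. The other 5 flanking genes were the Hox-related Evx1 and Evx2, with Ttll6, Skap1 and Calcoco2, each at 13 counts or fewer in every library.

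The regulators that set Hox expression elsewhere were mostly present. All 18 Polycomb and trithorax genes examined, whose products keep Hox clusters silent or active, were detected, with a summed level of 2016–2108 CPM at E10.5, 2017–2052 CPM at E11.5, then 1587–1819 CPM at E12.5. Cbx8, a subunit of Polycomb complexes, rose at E12.5 vs. E10.5 by 1.09 on the log2 scale (SE 0.22), and no other of the 18 was called in any of the 3 comparisons. This 1 of 18 stands beside the 9.97% of all tested genes that rose. The median log2 fold change of the 18 at E12.5 vs. E10.5 was -0.26, against -0.0063 over all genes tested. Of 9 direct activators of Hox genes, 6 were detected, and none rose and 2 fell at E12.5 vs. E10.5, where 9.97% of all tested genes rose and 5.08% fell, with a median of -0.0091. The retinoic acid receptor Rarb fell by 1.66 (SE 0.27), and the other that fell was Cdx1. Of the 9 TALE cofactors, none was called at E11.5 vs. E10.5 or E12.5 vs. E11.5, against 6.07% and 5.1% of all tested genes. Pknox2 alone of them fell at E12.5 vs. E10.5, by 1.08 on the log2 scale (SE 0.19, edgeR's quasi-likelihood test, Benjamini-Hochberg adjusted p = 0.00236), where 5.08% of all tested genes fell. Egr2, which drives Hox genes in the hindbrain, had 0–10 counts, Cdx4 at most 1, and Cdx2 none.

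Markers of tissues that carry Hox RNA were examined beside these values, and their part in the Hox counts was not tested. The genes called in them at E12.5 vs. E10.5 are to be read against the 9.97% of all tested genes that rose and the 5.08% that fell. Of the 18 facial genes, 4 rose and 3 fell in that comparison, and 3 rose and 1 fell at E11.5 vs. E10.5, where 6.07% of all tested genes were called. In the hindbrain list 2 of 7 genes were detected, with 9.39–12.5 CPM at E10.5, 6.56–8.17 at E11.5, then 6.61–9.12 at E12.5. Most of this was Lmx1b, with means of 10.8, 7.01 and 7.51 CPM, while Lbx1 and Atoh1 had at most 3 counts and Ptf1a none. In the tail bud list 3 of 8 were detected, at 1.36–2.55, 0.914–1.63 and 0.774–1.80 CPM at the 3 stages, with Msgn1 and Cdx2 at 0. In the spinal motor neuron list 2 of 5 were detected, at 0.619–2.14, 2.79–3.16 and 3.32–4.36 CPM, with Slc5a7 called as higher at E12.5 vs. E10.5 and Mnx1 at 0. In the heart list 3 of 6 were detected, at 1.84–2.09, 0.914–1.11 and 1.07–1.43 CPM, with Nppa at 0.

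All 8 somite genes were detected, with 13.7–35.4, 37.6–48.5 and 125–148 CPM at the 3 stages, and Pax1 and Tbx18 rose at E12.5 vs. E10.5. Most of the E12.5 sum was Pax1, with a mean of 93.4 CPM. All 6 limb bud genes were detected, at 85.5–125, 64.0–75.8 and 87.3–111 CPM, and En1, Shox2 and Tbx4 rose while Pitx1 fell. Most of the E10.5 sum was Pitx1, with a mean of 81.7 CPM. In the lung, gut and kidney list 3 of 7 were detected, at 38.3–61.2, 4.57–7.25 and 5.22–7.94 CPM, and Nkx2-1 fell. Most of the E10.5 sum was Nkx2-1, also a gene of the ventral forebrain, with a mean of 44.3 CPM. Sftpc, Pax8, Foxa3 and Gata4 had at most 3 counts in every library. A list sum carried by 1 gene does not show that the named tissue was present. The 7 erythroid, 7 macrophage and 7 endothelial genes were all detected, at 3088–4989, 19.6–33.8 and 122–335 CPM over all libraries. Between E12.5 and E10.5, 4 of the 7 erythroid genes fell, 1 of the 7 macrophage genes rose and no endothelial gene was called, where 9.97% of all tested genes rose and 5.08% fell.

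For Hoxd1 and Hoxc13, lists of sensory neurons and of ectodermal placodes and whisker follicles were drawn up after the Hox counts had been seen. The sensory neuron genes, 5 of 7 of which were detected, summed to 40.8–50.1 CPM at E10.5, 37.8–40.7 at E11.5, then 49.2–58.0 at E12.5. Most of the E10.5 sum was Isl1, with a mean of 26.0 CPM, and most of the E12.5 sum was Runx1, with a mean of 35.9 CPM. Tac1 and Runx1 rose at E12.5 vs. E10.5, and Isl1, Prdm12 and Pou4f1 fell. Prrxl1 and the nociceptor gene Scn10a had at most 3 counts in every library. All 6 placode and follicle genes were detected, summing to 81.5–119 CPM at E10.5, 169–260 at E11.5, then 301–360 at E12.5, and Lef1, Dkk4, Edar and Fgf20 rose while Shh fell at E12.5 vs. E10.5, where 9.97% of all tested genes rose and 5.08% fell. Lef1 made up most of the placode and follicle sum at E12.5, with means of 52.9, 182 and 276 CPM at the 3 stages. The rise of that sum thus mainly follows this gene. Since this list was chosen after the Hox counts, its calls are a description.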

How the data were processed

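RNA-seq libraries of pooled C57BL/6J lambdoidal junction tissue (3 stages, 3 libraries each) were analysed from the deposited gene table. The authors mapped reads to GRCm38/mm10 with HISAT2 2.0.5 and deposited whole-number counts per gene from featureCounts, without normalization. The FPKM columns, and columns of the authors' own comparisons (stage means, fold changes and p-values), were not used. Strand setting and treatment of multiply assigned reads are not given in the sources used here. Nothing says that pools came from separate litters, so p-values measure the spread between these libraries.

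The 6 libraries of each comparison were fitted alone in edgeR 4.0.16 (R 4.3.3) with filterByExpr, TMM normalization, the quasi-likelihood test and Benjamini-Hochberg adjustment over all genes tested, and the script was tested on simulated data. A call needed an adjusted p of at most 0.05 with a log2 fold change of 1 or more in size, as in the study. The study used DESeq2, and DESeq2 1.42.0 was an alternative here. CPM used TMM-scaled library sizes of all 9 libraries. Ratios of summed counts carry exact 95% conditional binomial intervals, which cover counting error only. An exact permutation test of 3 against 3 libraries cannot go below p = 0.1 and was not used. Coordinates are those of the table, 38 of the 40 Hox rows having the same ones in GENCODE vM21, from which exon overlaps were taken. Every Hox gene described is named; of the other lists, at most 6 called genes are named. The results of some genes are not reported here, and they were left out of all sums and counts of the Hox genes and lists. The Hox genes and the lists were chosen with earlier results of these data known. Alternatives were other normalizations, filters, thresholds and detection limits, a fit of all 9 libraries, GC correction, a replicate block, and leaving out each library.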

Additional observations from a re-analysis of the deposited data

How the results depend on the processing

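The number of detected Hox genes was 3, with 8 when any count in every library of a stage sufficed and 2, Hoxd1 and Hoxd8, when more than 10 counts were required. Leaving out each library in turn gave 3–4, the fourth gene being Hoxb9 without E12.5 replicate 1. Without a filter on low counts, 4 Hox genes were called at E12.5 vs. E10.5, where 2 were called with it. At E12.5 vs. E11.5 leaving out each library gave 1–2 calls, since Hoxd8 (log2 fold change 3.97, edgeR Benjamini-Hochberg adjusted p = 0.0663) was lost without E12.5 replicate 1. The summed level at E12.5 was 2.81 CPM without Hoxd1. No value could be had with at least 10 counts required in every library, since no Hox gene passed. Same-numbered libraries did not deviate together in every pair (r from -0.151 to 0.220). Between E12.5 and E10.5, r was positive for each number (0.178, 0.0701 and 0.220). Such values cannot tell whether same-numbered libraries share more than a number. With a replicate block, Hoxd1 and Hoxd8 were called at E12.5 vs. E10.5 and at E12.5 vs. E11.5, as without it. At E11.5 vs. E10.5 no Hox gene passed the filter in either fit, so the 0 calls there were fixed beforehand. In the 2 comparisons with E12.5, the other alternatives, GC correction among them, left every count of Hox calls within 1.5 times its value and every tested direction unchanged. At E11.5 vs. E10.5 most alternatives tested no Hox gene. The fit of all 9 libraries tested Hoxd1 and Hoxd8 there and called neither. Depth limits all of this: a Hox gene at 0 may have up to 0.144–0.186 CPM in a library.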

Other observations

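Of the ParaHox genes, the homeobox relatives of the Hox clusters, Gsx2, Gsx1 and Cdx1 fell after E10.5. Gsx2, a gene of the ventral forebrain, had 28, 34 and 46 counts at E10.5, 0, 1 and 0 at E11.5 and none at E12.5. Gsx1 had 19, 11 and 17 counts at E10.5, 0, 2 and 0 at E11.5 and 4, 1 and 0 at E12.5. Cdx1, which activates Hox genes in the trunk, had 15, 23 and 17 counts at E10.5, 1, 6 and 7 at E11.5 and none at E12.5. At E11.5 vs. E10.5, a comparison in which 6.07% of all tested genes were called, Gsx2 fell by 6.49 on the log2 scale (SE 0.68, edgeR Benjamini-Hochberg adjusted p = 0.00171). Gsx1 fell by 4.52 (SE 0.78, edgeR Benjamini-Hochberg adjusted p = 0.0105), and Cdx1 fell by 2.16 (SE 0.54, edgeR Benjamini-Hochberg adjusted p = 0.0394). They passed the filter on low counts only through E10.5. Pdx1 and Cdx2 were at 0 in every library, and Cdx4 had 1 count in all, at E11.5. The ventral forebrain gene Nkx2-1 moved with Gsx1 and Gsx2, with 528, 755 and 935 counts at E10.5, 0, 49 and 7 at E11.5 and 17, 0 and 0 at E12.5, and its part in their fall was not tested.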
